A study of Mus musculus with 4 samples.

Results

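Cadherins are adhesion proteins of the cell surface, and 33 of their genes, 22 cadherins and 11 nonclustered protocadherins, were followed through embryoid body (EB) formation from mouse embryonic stem (ES) cells. Membership follows from the gene symbol, and the family itself was picked with earlier results of these data known. A probe set was a member where its only annotated symbol was Cdh or Pcdh followed by a number, which excludes the clustered protocadherins. The rule also left out Cdh15, which is not reported here. Of the 21789 probe sets with a single symbol, 37 met that rule. They stand for 33 of 19938 genes.

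The study compared undifferentiated ES cells at day 0 with EBs at day 7 grown without ligand (untreated), with retinoic acid (RA) or with bexarotene, to learn how a rexinoid and RA direct early differentiation toward skeletal muscle. The article names the mouse D3 line as the source of the cells, and EBs formed over 2 days in hanging drops and 5 further days in suspension. RA, the natural ligand of the RA receptors, was given at 5 µM according to the sample labels, whereas the article states a lower, nanomolar dose. Bexarotene, a synthetic agonist of the retinoid X receptors, was given at 50 nM. The labels give 1 array for each condition, so there is no replicate, no error between cultures and no test, and every difference below is a difference between 2 arrays. Values are log2 signal, and a gene counts as higher or lower if 2 arrays differed by at least 1.5-fold (0.585 on the log2 scale), the threshold of the study. As a scale, bexarotene minus RA had a robust SD of 0.0729 to 0.139 among genes of similar signal, and as no pair of arrays was more alike it sets no bound on the others. The array medians were between 6.66 and 6.69, and pluripotency genes checked the labels: 8 of 10 were lower in untreated EBs relative to ES cells and none was higher.

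Classical cadherins hold cells together by binding the same or a similar cadherin on the neighbouring cell in the presence of calcium, and their cytoplasmic tails bind catenins, which link them to actin. The type I genes include E-cadherin (Cdh1) of epithelia and pluripotent cells, P-cadherin (Cdh3), N-cadherin (Cdh2) of neural tissue and mesoderm, and R-cadherin (Cdh4). Type II cadherins mark subsets of neurons, mesenchyme and endothelium, and the exchange of E-cadherin for N-cadherin accompanies gastrulation and neurulation. Nonclustered protocadherins adhere more weakly. They are divided into delta-1 and delta-2 subgroups by their cytoplasmic motifs, and they guide cell sorting, somite formation and neuronal wiring.

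The upstream sequences of 21 member genes were found among RefSeq promoters (build GRCm38.p6), as 24 windows. Those shown belong to 3 protocadherin genes that differed with a ligand and to Cdh6 and Cdh9, neighbouring genes with different values in EBs. Each run holds the 250 bases before the annotated transcript start, on the coding strand. Capitals mark CCAAT boxes (CCAAT, or ATTGG on the other strand) and half-sites for retinoid receptors (AGGTCA or AGTTCA or GGGTCA or GGTTCA on either strand) in the protocadherin genes, and the longest stretch common to both windows in Cdh6 and Cdh9.
Pcdh7, chr5:57717831-57718080, plus strand: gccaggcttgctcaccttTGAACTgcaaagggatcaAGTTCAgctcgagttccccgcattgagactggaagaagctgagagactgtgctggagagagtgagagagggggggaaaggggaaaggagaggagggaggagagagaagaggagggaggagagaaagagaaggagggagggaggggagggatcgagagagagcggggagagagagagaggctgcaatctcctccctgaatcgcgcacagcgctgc
Pcdh8, chr14:79771313-79771562, minus strand: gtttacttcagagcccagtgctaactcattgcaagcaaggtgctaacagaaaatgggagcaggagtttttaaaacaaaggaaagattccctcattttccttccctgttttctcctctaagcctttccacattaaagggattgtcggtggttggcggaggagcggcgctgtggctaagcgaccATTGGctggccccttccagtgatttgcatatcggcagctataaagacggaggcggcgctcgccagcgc
Pcdh17, chr14:84443313-84443562, plus strand: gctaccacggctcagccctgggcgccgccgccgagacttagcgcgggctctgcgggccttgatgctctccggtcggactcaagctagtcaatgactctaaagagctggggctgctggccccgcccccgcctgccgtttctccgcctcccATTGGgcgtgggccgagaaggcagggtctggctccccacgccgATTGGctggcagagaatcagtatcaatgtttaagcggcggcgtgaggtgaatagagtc
Cdh6, chr15:13173676-13173925, minus strand: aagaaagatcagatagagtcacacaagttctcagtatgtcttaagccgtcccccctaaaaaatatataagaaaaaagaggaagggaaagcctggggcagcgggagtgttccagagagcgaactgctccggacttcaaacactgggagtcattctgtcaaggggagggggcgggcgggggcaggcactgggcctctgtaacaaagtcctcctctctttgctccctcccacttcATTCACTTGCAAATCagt
Cdh9, chr15:16728665-16728914, plus strand: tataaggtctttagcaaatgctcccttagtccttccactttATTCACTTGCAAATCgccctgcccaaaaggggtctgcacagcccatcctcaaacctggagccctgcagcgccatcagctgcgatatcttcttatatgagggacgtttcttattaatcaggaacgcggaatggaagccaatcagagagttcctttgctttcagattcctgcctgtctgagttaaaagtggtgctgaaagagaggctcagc

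Untreated EBs differed from ES cells in 14 of the 33 genes, 13 of them higher and 1 lower. The 13 higher genes are 39.4% of the members, against 11.0% of all genes past 1.5-fold higher, and the single lower gene is 3.03%, against 8.52% of all genes. The median log2 difference was 0.36 over the members and -0.04 over all genes. By subfamily, 7 of 13 type II cadherins, 3 of 5 delta-2 protocadherins, 1 of 3 delta-1 protocadherins, 1 of 4 type I cadherins and 1 of 5 other cadherins (Cdh13) were higher. In the last of these groups the median was -0.18 and 4 of 5 genes were below 0. None of the 3 remaining protocadherins, Pcdh12, Pcdh15 and Pcdh20, was past the threshold. As these are whole cultures, more cells of a type and more RNA per cell cannot be told apart.

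**Figure D1:**
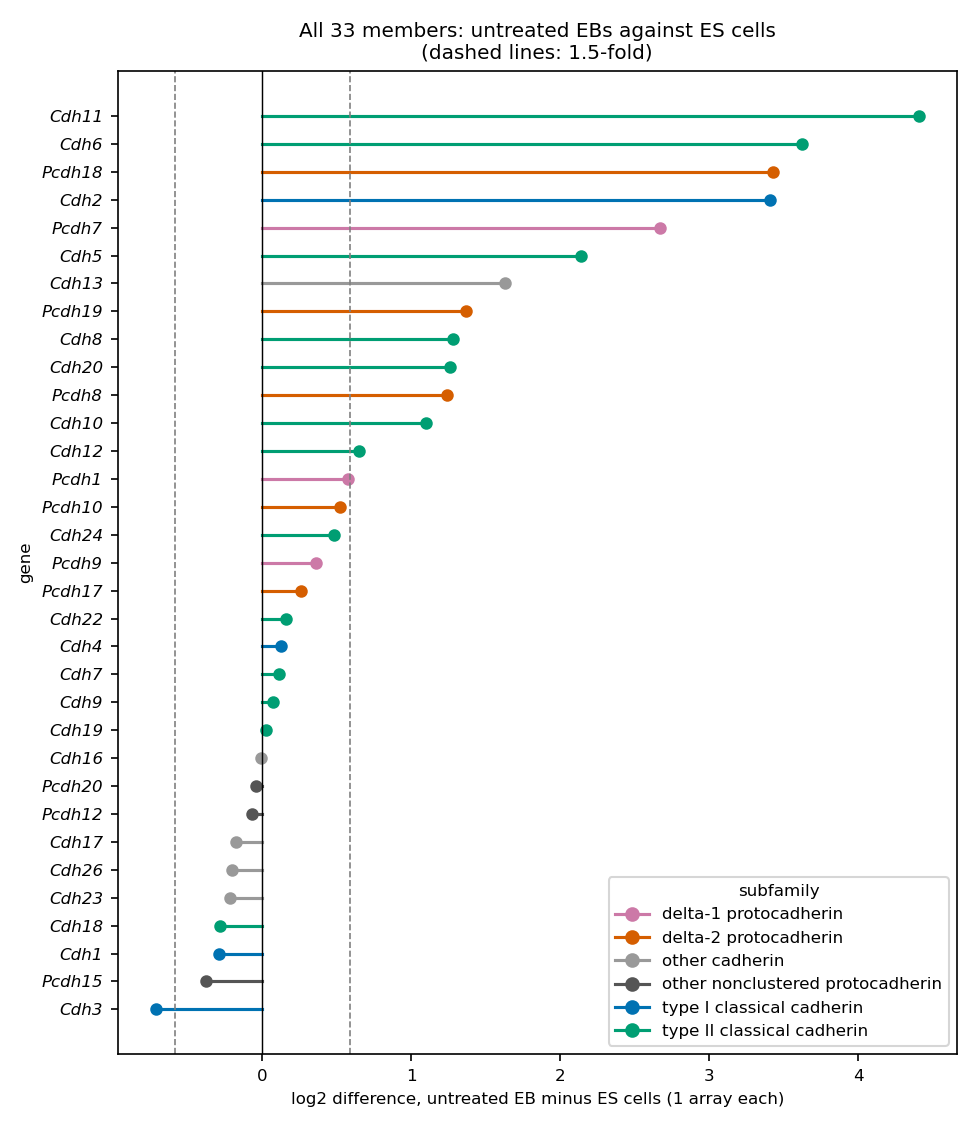
Log2 difference between untreated EBs and ES cells for all 33 member genes, with 1 array per condition, 1 point per gene, colours for subfamilies and dashed lines at 1.5-fold. Cdh11 (4.41), Cdh6 (3.62), Pcdh18 (3.42) and Cdh2 (3.40) stand farthest to the right, and Cdh3 (-0.72) alone lies past the line on the left.

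The type I cadherins did not move together. Cdh2, which encodes N-cadherin, had a log2 signal of 7.47 in ES cells, 10.88 in EBs without ligand, 10.83 with RA and 10.88 with bexarotene. Its 3 EB values lay within 0.05 of each other, and untreated EBs were 10.6-fold above ES cells, the 34th largest increase among 19938 genes. Cdh1, which encodes E-cadherin, had a signal of 11.02 in ES cells, 10.72 in EBs without ligand, 10.32 with RA and 10.14 with bexarotene. E-cadherin was thus 1.23-fold lower in untreated EBs relative to ES cells, short of the threshold, while N-cadherin was more than 10-fold higher. Cdh3, which encodes P-cadherin, was 9.26 in ES cells, 8.54 in EBs without ligand, 8.72 with RA and 8.70 with bexarotene. It was the one member past the threshold lower in untreated EBs, at 1.64-fold, and both ligand-treated arrays lay between untreated EBs and ES cells. Cdh4, R-cadherin, was not past 1.5-fold in any of the 4 comparisons, with its largest difference in EBs a log2 value of 0.48 with RA. Against ES cells, which is outside these comparisons for the ligand arrays, Cdh4 was 1.52-fold higher with RA and 1.21-fold higher with bexarotene.

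Type II cadherins held the largest increases. Cdh11, a cadherin of mesenchyme and mesoderm, had a signal of 6.03 in ES cells, 10.43 in EBs without ligand, 10.09 with RA and 9.92 with bexarotene. At 21.2-fold in untreated EBs against ES cells it was the 6th largest increase among all genes. Cdh6, a cadherin of neural crest precursors, kidney epithelium and brain, was 6.58 in ES cells, 10.20 in EBs without ligand, 10.0035 with RA and 9.74 with bexarotene. Its 12.3-fold increase ranked 25th. For both genes the order of the EB arrays was untreated, RA, bexarotene, with log2 differences from untreated EBs of -0.34 and -0.51 for Cdh11 and of -0.20 and -0.47 for Cdh6.

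Cdh8, Cdh10 and Cdh20, type II cadherins of the developing nervous system, were increased to a lesser extent. Cdh8 had a signal of 5.82 in ES cells, 7.10 in EBs without ligand, 6.94 with RA and 6.80 with bexarotene, and was 2.42-fold higher in untreated EBs than in ES cells. Cdh10 was 6.19, 7.29, 7.21 and 6.72 on the same 4 arrays in that order, a 2.14-fold increase in untreated EBs. Cdh20 was 5.60, 6.87, 6.66 and 6.30, a 2.40-fold increase in untreated EBs, and lay above the array median in untreated EBs only. All 3 genes had their lowest EB value with bexarotene and their lowest value of all in ES cells. Cdh12 was 1.57-fold higher in untreated EBs, but its signal of 4.84 to 5.48 was under the median of every array.

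Among the delta-2 protocadherins, Pcdh18, a gene of mesodermal and neural progenitors, followed the pattern of N-cadherin. Its signal was 5.82 in ES cells, 9.25 in EBs without ligand, 9.21 with RA and 9.17 with bexarotene, an increase of 10.7-fold in untreated EBs that ranked 32nd among all genes. The 3 EB values lay within 0.08 of each other. Pcdh19, an X-linked gene of neural and somitic tissue that cooperates with N-cadherin, was 5.67 in ES cells, 7.04 in EBs without ligand, 6.83 with RA and 6.86 with bexarotene. It was 2.58-fold higher in untreated EBs than in ES cells and differed by at most 1.15-fold between EB arrays. Pcdh10, another gene of this subgroup, was 1.43-fold higher in untreated EBs and not past the threshold.

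**Figure D2:**
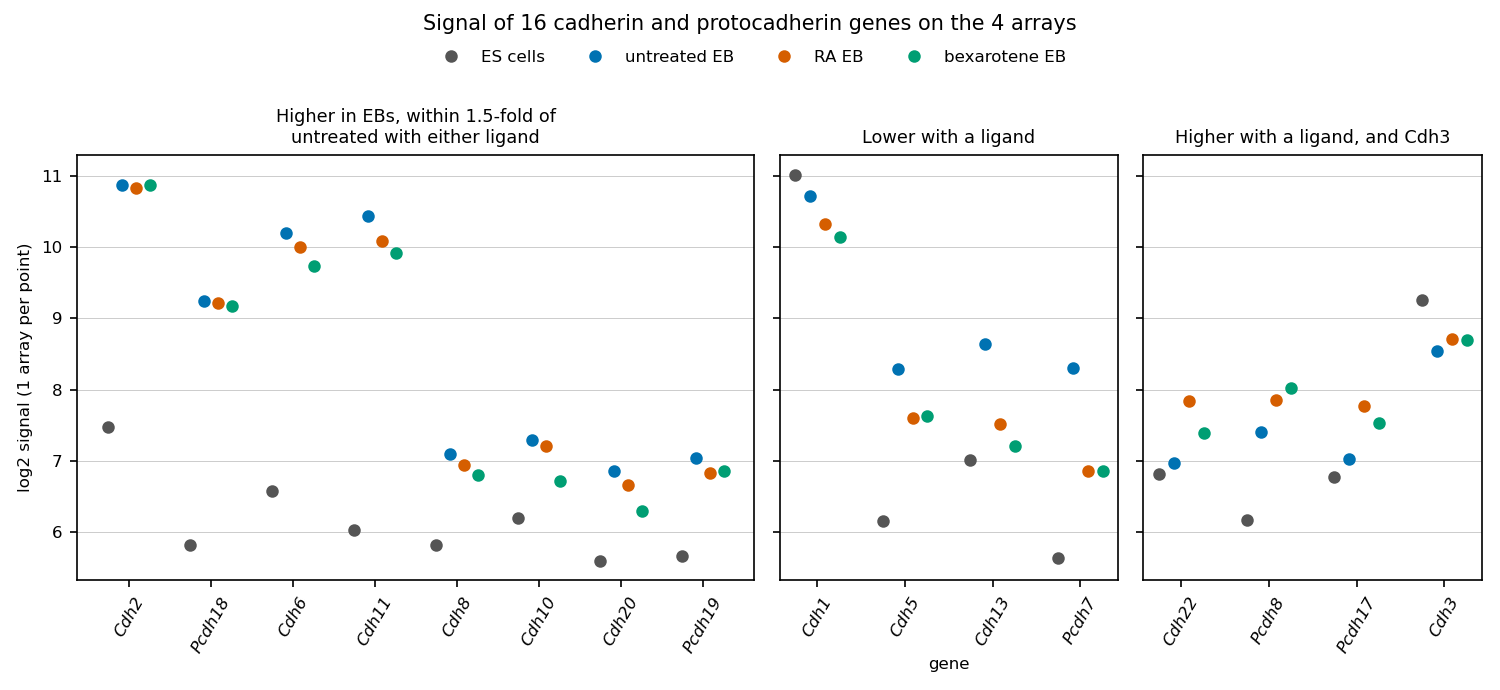
Log2 signal (y axis) of 16 member genes (x axis) on the 4 arrays, 1 point per array and no error bars because there are no replicates. On the left, the 8 genes have their lowest point in ES cells and 3 higher EB points. Pcdh7 and Cdh13 in the middle have ligand-treated points well below the untreated point, and Cdh22 and Pcdh17 on the right have ligand-treated points above it.

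RA-treated EBs differed from untreated EBs in 5 members and bexarotene-treated EBs in 5, and together these were 7 genes. With RA, 2 of 33 genes (6.06%) were higher, against 2.07% of all genes, and 3 (9.09%) were lower, against 2.22% of all genes. With bexarotene, 1 of 33 (3.03%) was higher, against 1.48% of all genes, and 4 (12.1%) were lower, against 2.15% of all genes. Pluripotency genes differed in the same comparisons: 6 of 10 were past 1.5-fold higher with RA (list median 0.65) and 0 of 10 with bexarotene (median 0.29), and all 10 lay above untreated EBs with either ligand. The mean log2 signal of that list was 10.71 in ES cells, 8.52 in EBs without ligand, 9.06 with RA and 8.79 with bexarotene, and its part in the members' values was not tested. The medians were -0.07 with RA and -0.09 with bexarotene over the members, and 0 and -0.01 over all genes. Both ligands are set against the same untreated array, so a deviation of that array would appear in both comparisons.

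**Figure D3:**
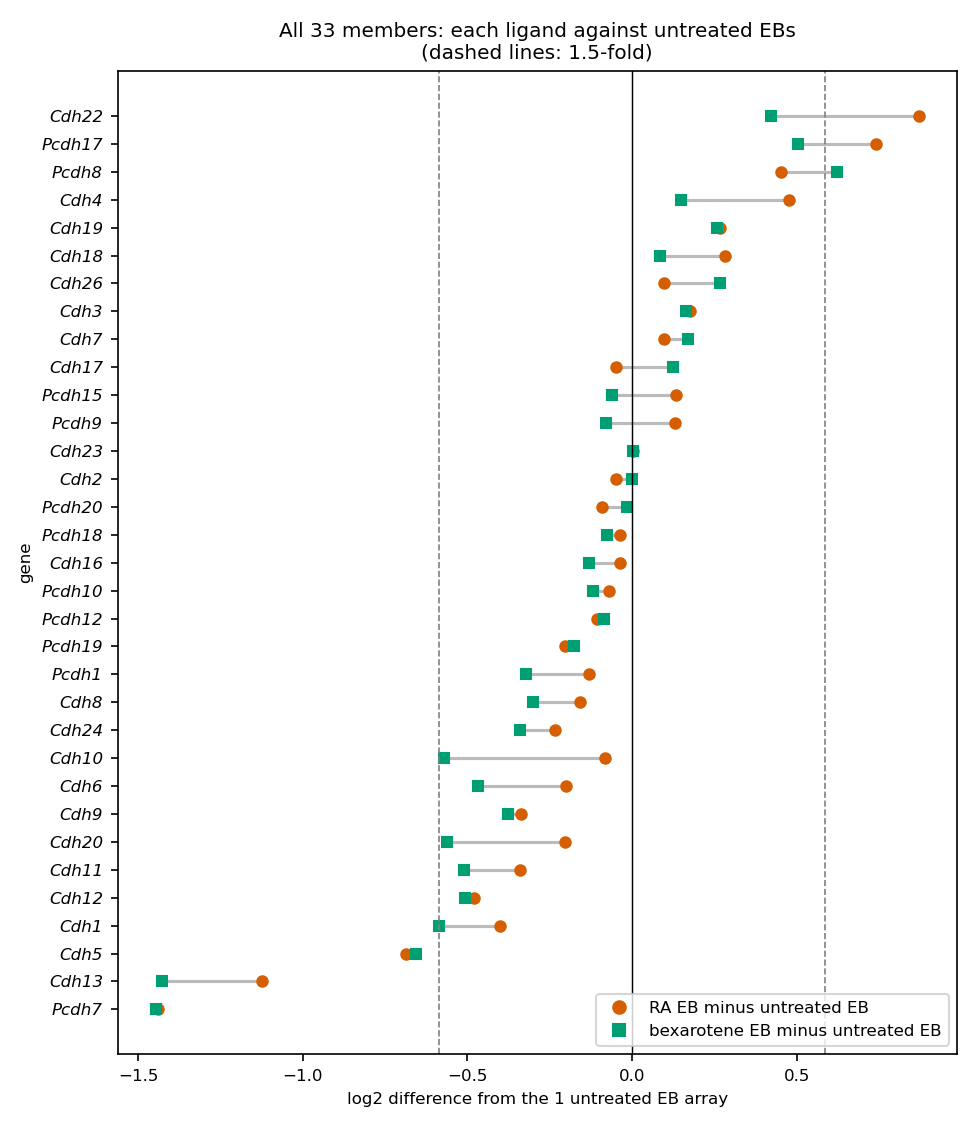
Log2 difference of RA-treated EBs (circles) and bexarotene-treated EBs (squares) from the 1 untreated EB array they share, for all 33 member genes, with dashed lines at 1.5-fold. Pcdh7 and Cdh13 lie past 2-fold to the left with both ligands, and Cdh22, Pcdh17 and Pcdh8 are the genes farthest to the right.

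Pcdh7, a delta-1 protocadherin also known as NF-protocadherin, had the largest decrease of any member with either ligand against untreated EBs. Its signal was 5.64 in ES cells, 8.30 in EBs without ligand, 6.86 with RA and 6.86 with bexarotene. Untreated EBs stood alone at the top, 6.35-fold above ES cells, and both ligand-treated arrays lay 2.33-fold to 2.34-fold above ES cells. Against untreated EBs it was 2.71-fold lower with RA, the 54th largest decrease of all genes, and 2.72-fold lower with bexarotene, the 66th. The ligand arrays differed from each other by a log2 value of -0.006. Its upstream window above holds 2 half-sites, at positions -232 and -214 from the transcript start, in opposite orientations and not as a direct repeat. Such half-sites were present in 9 of 24 member windows and in 38.6% of all windows. Their part in the values of Pcdh7 was not tested.

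Cdh13 encodes T-cadherin, which is anchored by a lipid tail, lacks a cytoplasmic domain and binds adiponectin on endothelium and muscle. Its signal was 7.02 in ES cells, 8.65 in EBs without ligand, 7.52 with RA and 7.22 with bexarotene. It was 3.09-fold higher in untreated EBs than in ES cells, and 2.18-fold lower with RA and 2.69-fold lower with bexarotene than in untreated EBs. With bexarotene the value was only 1.15-fold above that of ES cells. These decreases ranked 124th and 69th among all genes.

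Markers of mesenchyme were mixed beside these 2 genes. Of 9 genes of fibroblasts and mesenchyme, 5 were past 1.5-fold higher and 1, Thy1 (-0.78), lower in untreated EBs against ES cells, 4 were lower with RA and 3 were lower with bexarotene. Postn, a matrix protein gene, had log2 differences of 3.88 in untreated EBs against ES cells, -1.02 with RA and -1.54 with bexarotene. Prrx1, a homeobox gene of mesenchyme, had 2.37, -1.23 and -0.93. Lum, with the lowest ligand values of the list, had 2.15, -1.915 and -1.85, but its signal of 4.07 to 6.22 was under the median of every array. In contrast, Pdgfra, a growth factor receptor gene of mesenchyme, was at 0.11 with RA and 0.12 with bexarotene, and Col3a1, a collagen gene, at 0.21 and 0.29. The mean log2 signal of the list was 6.58 in ES cells, 7.86 in EBs without ligand, 7.29 with RA and 7.31 with bexarotene. Its part in the values of Pcdh7 and Cdh13 was not tested.

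Cdh5 encodes VE-cadherin, the cadherin of endothelial junctions. Its signal was 6.16 in ES cells, 8.30 in EBs without ligand, 7.61 with RA and 7.64 with bexarotene. It was 4.40-fold higher in untreated EBs than in ES cells, and 1.61-fold lower with RA and 1.58-fold lower with bexarotene than in untreated EBs. Other endothelial genes did not all follow. Of 10 such genes, 3 (Flt1, Emcn and Kdr) were higher and 3 (Pecam1, Eng and Tek) lower in untreated EBs relative to ES cells. Kdr and Emcn were lower with RA, with log2 differences of -1.65 and -1.12, and with bexarotene Kdr alone was lower, at -0.996. The mean log2 signal of the list was 7.36 in ES cells, 7.47 in EBs without ligand, 7.23 with RA and 7.35 with bexarotene, and its part in the value of Cdh5 was not tested.

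E-cadherin was lower with bexarotene than in untreated EBs by 1.502-fold, a log2 difference of -0.587 that lies almost on the threshold, and under quantile normalization it was -0.567 and no longer past it. With RA it was 1.32-fold lower. Against ES cells it was 1.62-fold lower with RA and 1.84-fold lower with bexarotene. Just short of the threshold with bexarotene were Cdh10 at -0.57, Cdh20 at -0.56 and Cdh11 at -0.51. With bexarotene, 0 of 10 epithelial genes were past 1.5-fold. Krt18 (-0.72) and Krt8 (-0.60), keratins of simple epithelia, were lower with RA. With bexarotene Krt18 was at -0.56 and Krt8 at -0.52, short of the threshold. Against ES cells both keratins were higher in untreated EBs, Krt18 at 1.85 and Krt8 at 1.69. No other gene of the list was past 1.5-fold with RA. Epcam was at -0.10 with RA and 0.004 with bexarotene, and Ovol1 at 0.09 with each ligand. The mean log2 signal of the epithelial list was 8.87 in ES cells, 9.17 in EBs without ligand, 8.90 with RA and 8.95 with bexarotene. Its part in the value of E-cadherin was not tested.

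Pcdh8, known as paraxial protocadherin for its role in paraxial mesoderm and somite boundaries, was the one member higher with bexarotene. Its signal was 6.17 in ES cells, 7.40 in EBs without ligand, 7.85 with RA and 8.02 with bexarotene. The bexarotene array was 1.54-fold above untreated EBs and the RA array 1.37-fold, and the ligand arrays differed by 0.17, close to the spread of 0.137 at that signal. Of 10 paraxial mesoderm genes, Meox1 (1.18) and Pax3 (0.999) were higher with bexarotene and Foxc1 (-0.62) was lower. With RA, Pax3 (0.60) was higher and Foxc2 (-1.09) and Foxc1 (-1.02) were lower. The mean log2 signal of that list was 6.61 in ES cells, 7.03 in EBs without ligand, 6.99 with RA and 7.20 with bexarotene, and its part in the value of Pcdh8 was not tested.

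Cdh22 and Pcdh17, both best known from the brain, were higher with RA. Cdh22, a type II cadherin, had a signal of 6.82 in ES cells, 6.97 in EBs without ligand, 7.84 with RA and 7.39 with bexarotene. It was 1.83-fold higher with RA and 1.34-fold higher with bexarotene than in untreated EBs. Pcdh17, a delta-2 protocadherin, was 6.78 in ES cells, 7.04 in EBs without ligand, 7.77 with RA and 7.54 with bexarotene. It was 1.67-fold higher with RA and 1.42-fold higher with bexarotene. ES cells and untreated EBs were close to each other for both genes (1.11-fold and 1.20-fold apart), unlike the members described so far as higher in EBs.

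Neural genes moved in the same comparisons. Of 9 neuronal genes, 7 were higher with RA and 7 with bexarotene, with a mean log2 signal of 7.39 in ES cells, 7.46 in EBs without ligand, 9.02 with RA and 8.52 with bexarotene. Of 8 neural progenitor genes, 4 were higher with each ligand, with means of 7.98 in ES cells, 9.16 in EBs without ligand, 10.14 with RA and 10.01 with bexarotene. Their part in the values of Cdh22 and Pcdh17 was not tested. Cdh2, Cdh6, Cdh8, Cdh10, Cdh20 and Pcdh19, which are also expressed in neural tissue, were not past 1.5-fold higher with either ligand.

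Between the bexarotene and RA arrays, none of the 33 genes was past 1.5-fold in either direction, where 0.196% of all genes were higher with bexarotene and 0.296% lower. The largest differences were those of Cdh10 (-0.49), Cdh22 (-0.45), Cdh20 (-0.36), Cdh4 (-0.33) and Cdh13 (-0.31), all lower with bexarotene. Altogether 24 of 33 members had a lower value with bexarotene than with RA, among them 11 of 13 type II cadherins, as against 10764 of 19938 genes. Genes of the same culture are not independent, so these counts describe 2 arrays. The RA and bexarotene doses differ, and the difference between ligands cannot be told apart from that of dose.

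The remaining 16 members were past 1.5-fold in none of the 4 comparisons. They were Cdh4, Cdh7, Cdh9, Cdh16, Cdh17, Cdh18, Cdh19, Cdh23, Cdh24, Cdh26, Pcdh1, Pcdh9, Pcdh10, Pcdh12, Pcdh15 and Pcdh20, and each varied by 0.13 to 0.60 over the 4 arrays. Among them are kidney cadherin (Cdh16), liver-intestine cadherin (Cdh17) and the tip-link proteins of inner ear hair cells, Cdh23 and Pcdh15. Pcdh1 came nearest to the threshold, at 1.49-fold higher in untreated EBs than in ES cells. Of all members, 13 had a signal under the median on all 4 arrays, where small differences would not be detectable, and 12 of these were among the 16.

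For 4 genes with a pair of probe sets the higher one was used. In Cdh24 the members of the pair disagreed in direction: the one used had log2 differences of 0.48 in untreated EBs against ES cells, -0.23 with RA and -0.34 with bexarotene, and the other, annotated with no RefSeq transcript, had -0.25, 0.28 and 0.21. The Pcdh15 probe set with the higher signal has no RefSeq transcript in the annotation and was at -0.38 in untreated EBs against ES cells, whereas the one annotated to 12 RefSeq transcripts had -0.007. The pairs of Cdh18 and Pcdh9 had the same direction in each comparison with untreated EBs. For bexarotene minus RA the Cdh18 pair differed in sign, at -0.1975 for the probe set used and 0.0076 for the other. The counts of members lower with bexarotene than with RA include Cdh18 by the probe set used.

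Catenins and other partners of cadherins were set beside them. Of 11 genes of catenins and vinculin, Ctnnd2 (1.33), the neural delta-catenin, and Ctnna2 (0.72), the neural alpha-catenin, were higher in untreated EBs than in ES cells. Ctnnd2 was also higher with RA (0.82) and with bexarotene (0.63). Ctnnb1, beta-catenin, had log2 differences of 0.24, -0.09 and -0.15 in the same order of comparisons, and no gene of this list was past 1.5-fold lower. Jup lay almost on the threshold, at -0.5847 (1.4997-fold) in untreated EBs against ES cells. None of 8 measured genes of the WAVE complex, an actin regulator that delta-2 protocadherins bind, was past the threshold in any comparison, with values from -0.36 to 0.39 in untreated EBs against ES cells.

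Among 17 other genes of the cadherin superfamily, 5 were higher in untreated EBs than in ES cells and none lower. They were Fat3 (2.60), Fat4 (2.46), Clstn2 (2.44), Dchs1 (1.87) and Celsr2 (1.31). Dchs1 and Fat4 encode a ligand and receptor pair of planar polarity, and Celsr2 a planar polarity cadherin of neural tissue. With RA, Fat3 (1.56), Celsr2 (1.12) and Fat4 (0.71) were higher, and with bexarotene Fat3 (1.55) and Celsr2 (0.67). Of 12 desmosome genes, Dsp (1.36) and Dsc2 (1.19) were higher in untreated EBs than in ES cells and Perp (-1.08) and Dsg2 (-0.60) lower. Dsp and Dsc2 were lower with both ligands, at -0.77 and -0.83 with RA and -0.69 and -0.78 with bexarotene.

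Of 7 transcription factors of the epithelial-mesenchymal transition, which repress the E-cadherin gene in many settings, 5 were higher in untreated EBs than in ES cells. Zeb2 had a log2 difference of 3.66, Snai2 of 1.28, Zeb1 of 1.20, Twist1 of 1.10 and Snai1 of 0.78, and Snai3 was lower, at -1.96. None was past 1.5-fold with either ligand against untreated EBs. Of 9 nectin and nectin-like genes and their adaptor, Cadm1 (0.996) and Cadm3 (1.003) were higher in untreated EBs and Nectin4 lower (-0.63). Of 9 genes of cadherin processing and shedding, Pcsk5 (1.36), Adam10 (1.34) and Furin (0.70) were higher in untreated EBs and Pcsk6 lower (-2.25), and with RA Pcsk6 was higher (0.60). Adam10 is the protease that sheds E-cadherin and N-cadherin, and Furin removes their propeptides.

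**Figure D4:**
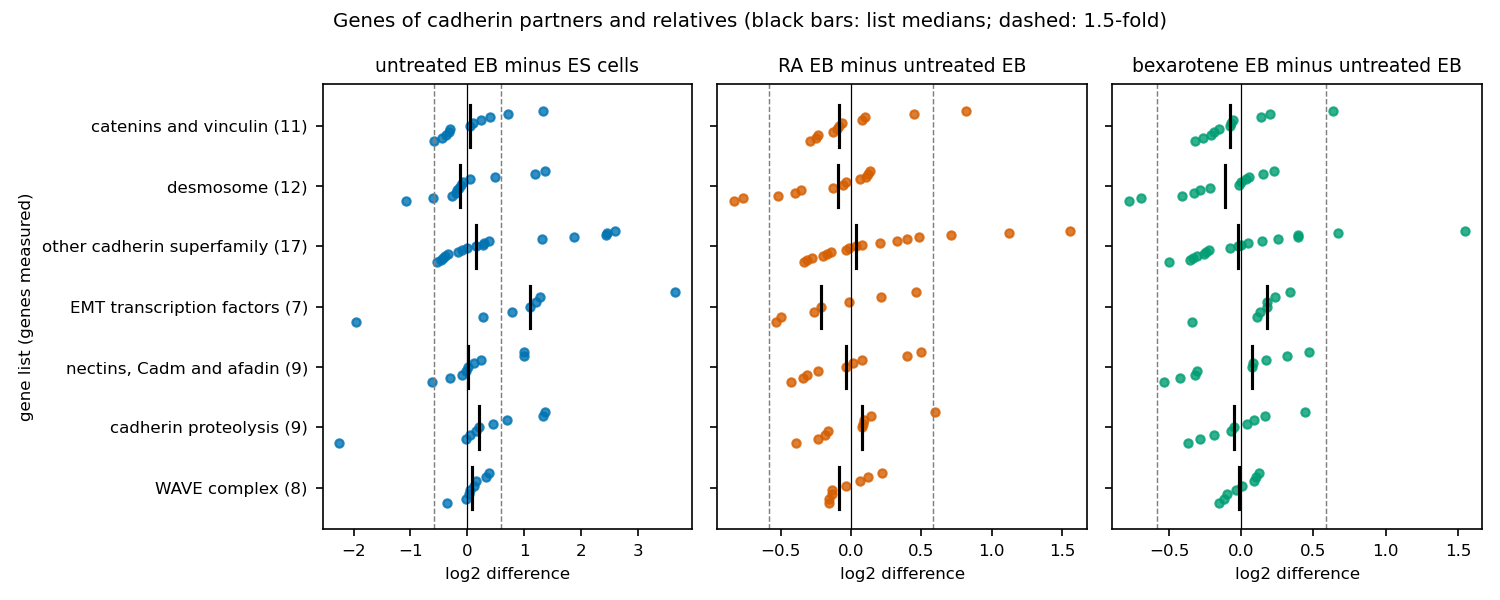
Log2 differences of genes in 7 lists of cadherin partners and relatives, untreated EBs against ES cells and each ligand against untreated EBs, 1 point per gene and 1 array per condition, with the number of measured genes in parentheses, black bars at list medians and dashed lines at 1.5-fold. The WAVE complex genes stay within the dashed lines, while Zeb2 (3.66) and Fat3 (2.60) lie far to the right in untreated EBs.

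In the upstream windows, a CCAAT box was present in 15 of 24 member windows and in 33.8% of all 32851 windows of the same length. Of 9 protocadherin genes with a window, 8 held one, among them Pcdh8 at position -68 and Pcdh17 at -101 and -58, and Pcdh7 held none. This motif was chosen after the sequences had been seen. Half-sites for retinoid receptors were present in 9 of 24 member windows and in 38.6% of all windows, and the strict form AGGTCA in 1 of 24 and 14.0%. The E-box CACCTG, to which Snail and Zeb factors bind, was present in 3 of 24 and 17.2%. The windows of Cdh1, Cdh2, Cdh3, Cdh4, Cdh5, Cdh11 and Cdh13 were not analysed here, so these counts do not cover E-cadherin. Cdh7 has 3 windows close together and Pcdh9 has 2 that overlap, so windows of 1 gene are not independent. The median GC content was 58.2% over member windows and 52.4% over all, from 36.8% in Cdh10 to 77.6% in Cdh22.

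The 15-base stretch shared by Cdh6 and Cdh9 starts at position -18 in Cdh6 and at -209 in Cdh9. Over 272 pairs of windows of different members, the longest shared stretch had a median of 9 bases, and only 1 other pair, with a repeat of pyrimidines, reached 15. The genes differed in EBs: Cdh6 was 12.3-fold higher in untreated EBs than in ES cells, whereas Cdh9, whose signal was under the median on every array, had a log2 difference of 0.07.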

How the data were processed

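One Affymetrix array per condition was analysed (4 samples, 35556 probe sets each). The authors used Affymetrix Expression Console for background correction and normalization, and deposited 1 log2 value of signal for each probe set. The article names RMA, and the submitters' processing notes name GCRMA. Symbols came from the platform annotation, and a gene stood by its probe set with the highest mean over the 4 arrays. Differences between arrays were computed with Python 3.11.15 and pandas 2.3.3 at a threshold of 1.5-fold, with no test. The procedure was run on simulated data with a change larger than any ligand difference of a member. The noise in that run was assumed, so it gives no measure of the noise between cultures. The spread was the robust SD of bexarotene minus RA in 20 bins of signal. Values are given in full for members past 1.5-fold whose higher signal reached the array median, and for Cdh1, Cdh2, Cdh3, Cdh5, Cdh11 and Pcdh8, and for up to 4 genes with the largest differences of each list, other genes being named after their values were seen. The members and the 15 gene lists were chosen with earlier results of these data known. The alternatives were a 2-fold threshold, quantile normalization, a floor at the 25th percentile, leaving out probe sets below the median of both arrays, and the mean probe set. Promoter windows of RefSeq (GRCm38.p6) were cut to the 250 bases before the start. Array number limits the precision. The visceral endoderm list (8 of 10 genes higher in untreated EBs than in ES cells, none past 1.5-fold with a ligand) is given here only.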

Additional observations from a re-analysis of the deposited data

Results flagged for a closer look

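Snai2 stood on opposite sides of untreated EBs with the ligands, at a log2 difference of -0.53 with RA and 0.18 with bexarotene, so that the bexarotene array was 0.71 above the RA array. Map2, a microtubule protein of neurons, had 0.55 with RA and -0.08 with bexarotene, so that the bexarotene array was -0.63 from the RA array. These are the list genes past 1.5-fold between the ligands that lay on opposite sides of untreated EBs. The side of Map2 with bexarotene is not resolved, as its -0.08 is of the size of the robust SD of bexarotene minus RA (0.0729 to 0.139). A further 5 list genes were past 1.5-fold between the ligands on the same side, Dcx at -0.96, Meox1 at 0.94, Kdr at 0.65, Pou5f1 at -0.60 and Emcn at 0.59 for bexarotene minus RA. Each rests on 1 array per ligand, and the difference was not tested.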

How the results depend on the processing

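No paired analysis was possible because each condition has 1 array. At a threshold of 2-fold, 0 members were lower in untreated EBs relative to ES cells, 0 were higher with RA, 0 were higher with bexarotene, and 2, Pcdh7 and Cdh13, were lower with bexarotene, since fewer genes reach a stricter threshold. The other 4 counts stayed within 1.5 times at 2-fold, with 12 members higher in untreated EBs than in ES cells and 2 lower with RA. Among these 4, the counts between bexarotene and RA were 0 at 1.5-fold and so could not change at 2-fold. The share of all genes past 2-fold was not computed, so the 2-fold counts of members have no background beside them. Under quantile normalization, the 25th percentile floor, the median filter and the mean probe set, all 8 counts stayed within 1.5 times. Cdh1 with bexarotene was past 1.5-fold without quantile normalization and not with it (-0.567). Under quantile normalization no named member changed sign where it was past the threshold, and none moved by more than the array spread. The mean probe set could not change the values of named members, as each has 1 probe set. The median filter only removes genes, and the floor left the values of named members the same. The difference of Cdh20 between the ligands could not be computed under the median filter. Signals below the array median limit the 13 members that lie there on every array. In ES cells, Cdh5, Cdh6, Cdh8, Cdh10, Cdh11, Cdh20, Pcdh7, Pcdh8, Pcdh18 and Pcdh19 were also under the median of 6.66. Their folds against ES cells, and the ranks of these, rest on that low value.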

Other observations

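Many members are neighbours in the genome. In the protein-coding gene order of GRCm38.p6, Cdh6, Cdh9, Cdh10 and Cdh12 follow each other on chromosome 15 with 0 genes between them. Their log2 differences between untreated EBs and ES cells were 3.62, 0.07, 1.10 and 0.65. On chromosome 8, Cdh8, Cdh11 and Cdh5 follow each other likewise and had differences of 1.28, 4.41 and 2.14, and Cdh3 and Cdh1, also adjacent there, had -0.72 and -0.29. On chromosome 14, Pcdh8 and Pcdh17, with 1 gene between them, were both above untreated EBs with each ligand, at 0.45 and 0.74 with RA and 0.62 and 0.50 with bexarotene, while Pcdh20 and Pcdh9, adjacent to each other, were within 0.13 of untreated EBs.

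A further 3 probe sets carry the symbol Cdh11 beside those of other transcripts and were not counted as members. Their log2 differences between untreated EBs and ES cells were 0.41, 0.37 and 0.41, against 4.41 for the Cdh11 probe set, and with either ligand they were within 0.05 of untreated EBs.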
